A study of Mus musculus with 27 samples.

Results

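The genes described here encode the neurofilament subunits and other proteins that fill or coat the axons of retinal ganglion cells, followed from embryonic to adult mouse retina. They were chosen by name (Nefl, Nefm, Nefh, Ina, Sncg, Thy1 and Prph), and all 7 were found among the 38168 features of the RNA-seq table. Thy1 was listed in 2 entries, of which the one with the higher mean was used. Whole retinas of wild type C57BL/6J mice were collected in the light phase at 7 ages and yielded 27 libraries: E14 (n = 3), E17 (n = 3), P1 (n = 4), P6 (n = 3), P15 (n = 4), P28 (n = 4) and P60 (n = 6). No mouse carried a transgene or received a treatment, so the only factor between groups was age. Sexes were mixed up to P1 and later libraries came from males, so sex composition changed together with age between P1 and P6 and cannot be told apart from it. The labels give 3 retinas per library, whereas the methods describe larger pools at early ages and single mice for some P60 libraries, without saying which, so p-values measure the spread between these libraries.

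Neurofilaments are the intermediate filaments of neurons. They are built from a light (Nefl), a medium (Nefm) and a heavy (Nefh) subunit together with α-internexin (Ina), and in neurons with axons in the periphery also with peripherin (Prph, which is a different gene from the photoreceptor disc gene Prph2). Filament content sets the calibre of large axons, and α-internexin is known as the subunit that developing neurons make before the heavy chain appears. In the retina the ganglion cells, whose axons form the optic nerve, hold most neurofilament, and horizontal cells contain it as well. γ-Synuclein (Sncg) is a small soluble protein of ganglion cells, and Thy-1 (Thy1) is a glycoprotein of the neuronal surface that serves as a marker of ganglion cells in rodent retina and is also carried by T lymphocytes.

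Levels are given in cpm, the usual RNA-seq measure in which the reads of a gene are scaled to the total of its library. The libraries held 7076646 to 11330762 reads, so that 1 read was worth 0.0882 to 0.141 cpm and 3 reads, the limit that a count of 0 allows, 0.265 to 0.424 cpm. Fold changes are from limma on log2(cpm + 1), fitted to all libraries at once with Benjamini-Hochberg adjustment over 31760 features, and they understate the change of genes near 1 cpm. A gene is said to have risen or fallen at an adjusted p under 0.05, and is counted as called when its change also reached 2-fold. One library stood apart. In P15 replicate 4 the 7 genes summed to 1322 cpm against 933.4 to 960.9 cpm in the other P15 libraries, and its effect is given beside the tests that rest on P15.

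Nefh and Thy1 were higher and Ina and Sncg lower by more than 2-fold in mature retina (P15, P28 and P60, n = 14) than in embryonic retina (E14 and E17, n = 6), so that 4 of the 7 genes were called. Over all features 14.9% were called higher and 16.1% lower in this comparison. Nefh rose by 4.56 on the log2 scale (SE 0.11, adjusted p = 3.6e-26) and Thy1 by 4.35 (SE 0.10, adjusted p = 1.7e-27). Ina fell by 2.38 (SE 0.06, adjusted p = 4.4e-26) and Sncg by 2.07 (SE 0.10, adjusted p = 4.9e-18). The remaining genes moved less than 2-fold with limma. Nefm fell by 0.65 (SE 0.08, adjusted p = 1.2e-08), while Nefl was higher by 0.14 (SE 0.06, adjusted p = 0.034) and Prph by 0.37 (SE 0.15, adjusted p = 0.025). For Prph, which had few reads, edgeR on the reads gave 1.10 (adjusted p = 0.014) and so called it higher, while limma with a pseudocount of 0.1 gave 0.74 (adjusted p = 0.073). Without P15 replicate 4 the limma difference for Prph was 0.30 and lay only just inside the limit (adjusted p = 0.05 after rounding). The Nefl difference no longer passed the test without P15 replicate 4 (0.11, adjusted p = 0.062) or without any one of E14 replicate 1, E14 replicate 2, E17 replicate 1 or E17 replicate 2. The median over the 7 genes was 0.145, beside -0.0647 over all features. In whole tissue, fewer cells of a type and less RNA per cell cannot be told apart.

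**Figure D1:**
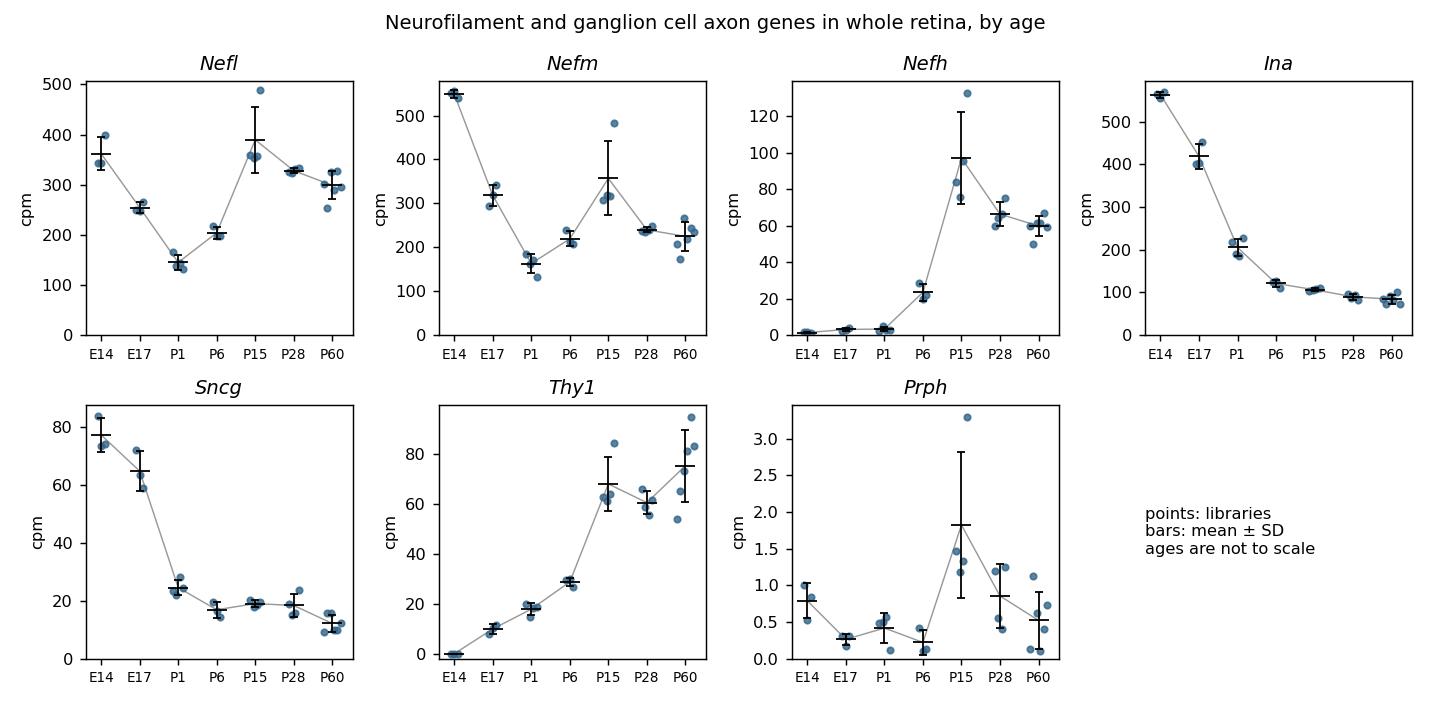
Level of each of the 7 genes in cpm (y axis, a separate scale for each gene) at the 7 ages (x axis, not to scale), with a point for each library and the mean ± SD as bars. Nefl and Nefm dip to their lowest mean at P1, and Nefh climbs from P1 to P15 and has lower means at P28 and P60. Ina and Sncg decline, and Thy1 climbs from near 0 at E14. The highest Nefl, Nefm, Nefh, Thy1 and Prph value at P15 is replicate 4.

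Nefl (Gene ID 18039), the light chain on which the other subunits assemble, lies on chromosome 14 (GRCm38, 68083863 to 68089095, plus strand) with 4 exons. It measured 342.3, 343.6 and 399.4 cpm at E14, 249.9, 247.3 and 266.3 at E17, and 165.2, 137.2, 144.5 and 132.6 at P1. It then measured 218.2, 196.8 and 197.2 cpm at P6, 359.5, 352.8, 356.8 and 488.8 at P15, and 324.6, 323.4, 331.2 and 332.4 at P28. At P60 the lowest library had 252.5, the median was 297.8 and the highest was 327.9 cpm. The level thus formed a trough: every P1 library lay below every library of the other ages, and P15, which had the highest mean, overlapped with E14, the next in order. Nefl fell by 0.50 from E14 to E17 (SE 0.10, adjusted p = 0.00068) and by 0.81 from E17 to P1 (SE 0.10, adjusted p = 2.4e-07). It rose by 0.49 from P1 to P6 (SE 0.10, adjusted p = 9.1e-05) and by 0.92 from P6 to P15 (SE 0.10, adjusted p = 4.6e-09). Without P15 replicate 4 the last rise was 0.80 (adjusted p = 9.3e-09).

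Nefm (Gene ID 18040), the medium chain, whose long tail projects from the filament, lies beside Nefl on chromosome 14 (68082590 to 68124846, minus strand). Its level was 551.1, 556.1 and 539.6 cpm at E14, 293.5, 318.6 and 342.4 at E17, and 184.6, 162.4, 171.1 and 133.4 at P1. Later it was 238.8, 213.0 and 206.4 cpm at P6, 307.4, 319.7, 317.1 and 483.1 at P15, 237.6, 235.6, 238.4 and 247.8 at P28, and 172.9 to 267.5 at P60 with a median of 227.9. Nefm, like Nefl, had its lowest mean at P1, but it did not return to its first level, since every later library lay below every E14 library. It fell by 0.79 from E14 to E17 (SE 0.13, adjusted p = 5.9e-05) and by 0.97 from E17 to P1 (SE 0.12, adjusted p = 1.2e-06). It rose by 0.43 to P6 (SE 0.12, adjusted p = 0.0057) and by 0.68 to P15 (SE 0.12, adjusted p = 7e-05), or by 0.52 without P15 replicate 4 (adjusted p = 0.00038). It was the only one of the 7 genes to pass the test from P15 to P28, where it fell by 0.55 (SE 0.12, adjusted p = 0.0051), or by 0.39 without P15 replicate 4 (adjusted p = 0.035).

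Nefh (Gene ID 380684), the heavy chain, which is added to filaments of maturing axons, lies on chromosome 11 (4938754 to 4948064, minus strand) with 4 exons. At E14 it was at 1.70, 1.48 and 0.947 cpm, which rest on 17, 14 and 9 reads. It was at 2.45, 2.82 and 4.04 cpm at E17 and at 2.45, 4.79, 3.05 and 2.96 at P1. From there it reached 28.7, 19.7 and 22.1 cpm at P6 and 84.1, 75.9, 95.3 and 132.6 at P15. The P28 libraries had 59.8, 64.0, 66.3 and 75.0 cpm and those of P60 49.9 to 67.0, with a median of 60.5. E17 and P1 overlapped, the P6 libraries lay above both, and the P15 libraries lay above those of every other age. Nefh rose by 2.52 from P1 to P6 (SE 0.18, adjusted p = 2.7e-13) and by 1.99 from P6 to P15 (SE 0.18, adjusted p = 1.6e-10), or by 1.82 without P15 replicate 4. The small difference from E14 to E17 (0.78, SE 0.19, adjusted p = 0.0043) did not pass the test without E17 replicate 3 (adjusted p = 0.056). From P15 to P28 Nefh was lower by 0.51 (SE 0.16), which did not pass the test with limma (adjusted p = 0.095) but did with edgeR on the reads (adjusted p = 0.046). Without P15 replicate 4 this difference was -0.35 with limma (adjusted p = 0.33).

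Ina (Gene ID 226180) encodes α-internexin, a subunit that can form filaments by itself, and lies on chromosome 19 (47014698 to 47025327, plus strand) with 3 exons. Its mean was lower at each successive age. The libraries went from 563.7, 555.4 and 569.5 cpm at E14 to 400.7, 402.1 and 453.0 at E17 and 217.7, 190.3, 186.1 and 226.4 at P1. The P6 libraries had 125.0, 127.2 and 110.7 cpm, those of P15 102.3, 104.9, 107.8 and 109.8, those of P28 96.6, 86.4, 93.9 and 81.6, and those of P60 71.7 to 100.4 with a median of 83.9. No neighbouring ages overlapped except P28 and P60. Ina fell by 0.43 from E14 to E17 (SE 0.10, adjusted p = 0.0029), by 1.03 from E17 to P1 (SE 0.09, adjusted p = 1.3e-09) and by 0.75 from P1 to P6 (SE 0.09, adjusted p = 5.8e-08). The later differences were -0.18, -0.25 and -0.10, with adjusted p-values of 0.13, 0.14 and 0.44. In contrast to Nefl, Nefm and Nefh, the level of Ina in P15 replicate 4 was 1.05 times the mean of the other P15 libraries.

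Sncg (Gene ID 20618), γ-synuclein, lies on chromosome 14 (34370274 to 34374789, minus strand) with 5 exons. It was at 84.0, 73.6 and 74.3 cpm at E14 and at 72.3, 63.4 and 58.9 at E17. A single large drop followed, to 23.6, 22.2, 28.4 and 24.4 cpm at P1. Later levels were 19.8, 16.5 and 14.5 cpm at P6, 20.2, 17.8, 18.5 and 19.8 at P15, 19.0, 15.2, 15.8 and 23.6 at P28, and 9.18 to 15.8 at P60 with a median of 11.3. The embryonic libraries lay above all others, and the ranges of P6, P15 and P28 overlapped. Sncg fell by 1.36 from E17 to P1 (SE 0.16, adjusted p = 2.4e-07), by 0.52 from P1 to P6 (SE 0.16, adjusted p = 0.01) and by 0.57 from P28 to P60 (SE 0.14, adjusted p = 0.01). The P6 step did not pass the test without P6 replicate 3 (adjusted p = 0.077), and the P60 step did not when P28 and P60 alone were fitted (adjusted p = 0.2).

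Thy1 (Gene ID 21838) lies on chromosome 9 (44043384 to 44048579, plus strand). It was all but undetected at E14, with 0, 0 and 1 read in the 3 libraries, and was found in every library from E17 on. It reached 7.87, 10.5 and 11.5 cpm at E17, 19.99, 14.6, 18.2 and 18.8 at P1, 29.7, 29.8 and 26.9 at P6, and 62.8, 61.1, 64.0 and 84.4 at P15. At P28 it was at 66.2, 58.7, 55.6 and 61.7 cpm, and at P60 at 54.2 to 95.05 with a median of 77.2. All ages up to P15 were separated from their neighbours, and P15, P28 and P60 overlapped. Since E14 rests on 1 read, the pooled level at E17 was 289.1 times that of E14 with an exact 95% counting interval of 51.5 to 11460, which covers counting error only. On the limma scale Thy1 rose by 3.39 from E14 to E17 (SE 0.16, adjusted p = 1.9e-16), a size that depends on the pseudocount. It rose by 0.79 to P1 (SE 0.15, adjusted p = 0.0004), by 0.66 to P6 (SE 0.15, adjusted p = 0.00061) and by 1.20 to P15 (SE 0.15, adjusted p = 1.5e-07), or by 1.10 to P15 without replicate 4 (adjusted p = 1.6e-06). From P28 to P60 it differed by 0.29 (SE 0.13, adjusted p = 0.12), and by 0.38 without P60 replicate 1 (adjusted p = 0.02).

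Prph (Gene ID 19132), peripherin, lies on chromosome 15 (99055174 to 99058978, plus strand) and was near the limit of detection. Its libraries ranged from 0.11 to 3.30 cpm, or 1 to 24 reads. The P15 libraries had 1.47, 1.19, 1.34 and 3.30 cpm, all above the P6 libraries with 0.42, 0.11 and 0.14 cpm. The other ages had means of 0.790 (E14), 0.265 (E17), 0.420 (P1), 0.856 (P28) and 0.524 cpm (P60), and all neighbours in the order of the means overlapped. The filter on low values asks for 1 cpm in 3 libraries. Every P15 library reached 1 cpm, as did E14 replicate 1, P28 replicates 1 and 4 and P60 replicate 2. The gene would thus pass without P15. No E17, P1 or P6 library reached 1 cpm, so this filter favours the ages with higher values. Prph rose by 1.16 from P6 to P15 (SE 0.23, adjusted p = 0.00021) and by 0.94, below the 2-fold limit, without P15 replicate 4 (adjusted p = 0.0016).

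The changes fell into distinct steps. From E14 to E17 Thy1 was the only one of the 7 called higher and none was called lower, beside 2.9% and 0.702% of all features. From E17 to P1 none was called higher and Ina and Sncg were called lower, beside 1.23% and 0.614% of all features, while Nefl and Nefm fell by less than 2-fold. The Ina call at this step was lost without E17 replicate 3, P1 replicate 2 or P1 replicate 3, since its fold lay close to the limit. From P1 to P6 Nefh was called higher and none lower, beside 6.3% and 6.74%. From P6 to P15 Nefh, Thy1 and Prph were called higher and none lower, beside 4.74% and 3.31%. Without P15 replicate 4 the called genes were Nefh and Thy1, and the Prph change was below 2-fold. From P15 to P28 none was called in either direction, beside 0.164% called higher and 0.22% lower. From P28 to P60 again none was called, beside 0.0756% higher and 0.378% lower, and scaling by the median of ratios moved the calls over all features at this step from 24 higher and 120 lower to 39 and 86. Counting every unadjusted p under 0.05 instead, 5 of the 7 genes differed between P15 and P28, and 2 between P28 and P60, and edgeR also called none at either step. The share of all features at this unadjusted limit was not counted, and the shares above do not apply to it. At each of the last 2 steps limma's adjusted test was passed by 1 gene at less than 2-fold (Nefm, then Sncg). The median over the 7 genes was -0.43, -0.81, 0.44, 0.92, -0.25 and -0.14 at the 6 steps in order, while that over all features stayed between -0.058 and 0.027.

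**Figure D2:**
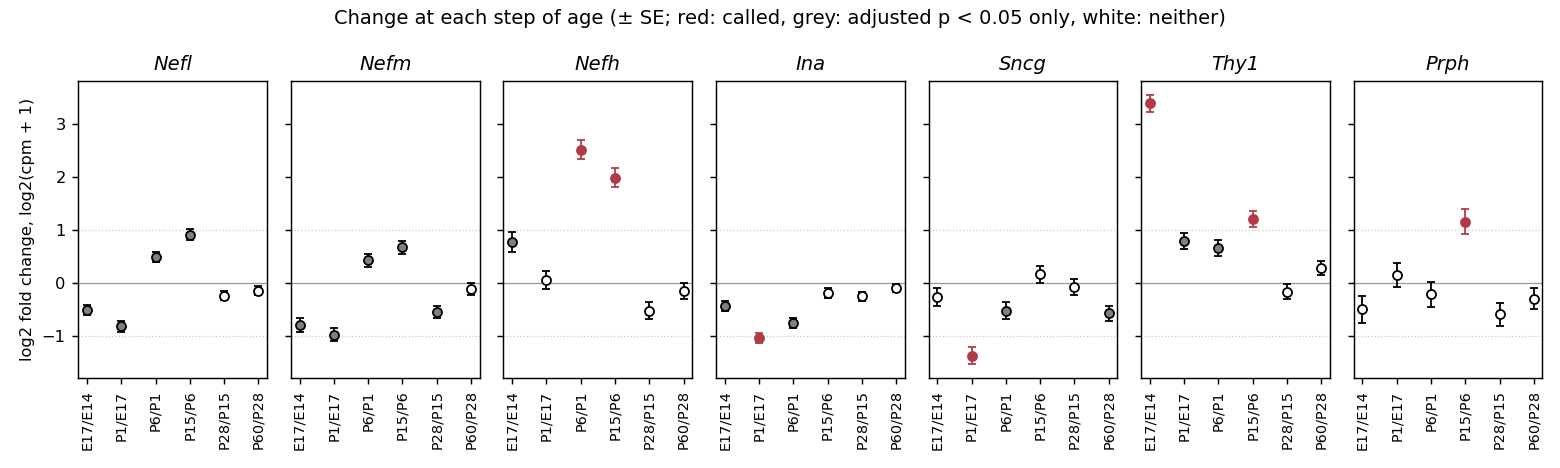
Log2 fold change ± SE of each gene on the log2(cpm + 1) scale (y axis) at each of the 6 steps between neighbouring ages (x axis), with red for changes of at least 2-fold at an adjusted p under 0.05, grey for smaller changes that passed the test and white for the rest. Nefl and Nefm fall at the first 2 steps and rise at the next 2, whereas Ina falls at the first 3 and the Nefh rise is split between P6 (2.52) and P15 (1.99).

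The composition of neurofilament transcripts changed with age. To compare subunits with each other, cpm was divided by the exon length of each gene, and the 4 subunits Nefl, Nefm, Nefh and Ina were expressed as a share of their sum within each library. In embryonic retina Ina held 47.9% ± 1.96 (SD, n = 6) of this sum, Nefl 28.7% ± 1.25, Nefm 23.2% ± 2.40 and Nefh 0.194% ± 0.119. In mature retina Nefl held 51.8% ± 1.78 (SD, n = 14), Nefm 23.9% ± 1.93, Ina 15.01% ± 1.32 and Nefh 9.35% ± 0.903. The embryonic and mature ranges did not overlap for Nefl, Nefh and Ina. Their differences of 23.1, 9.16 and -32.9 percentage points each gave p = 5.2e-05 in a two-sided exact permutation test (6.9e-05 after adjustment over the 4 shares), the smallest that the arrangements of these libraries allow. The Nefm share differed by 0.647 points (exact permutation p = 0.54), and its ranges overlapped. Without P15 replicate 4 the differences for Nefl, Nefh, Ina and Nefm were 23.3, 9.01, -32.6 and 0.305 points (exact permutation p = 7.4e-05 for each of the first 3 and 0.74 for Nefm).

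**Figure D3:**
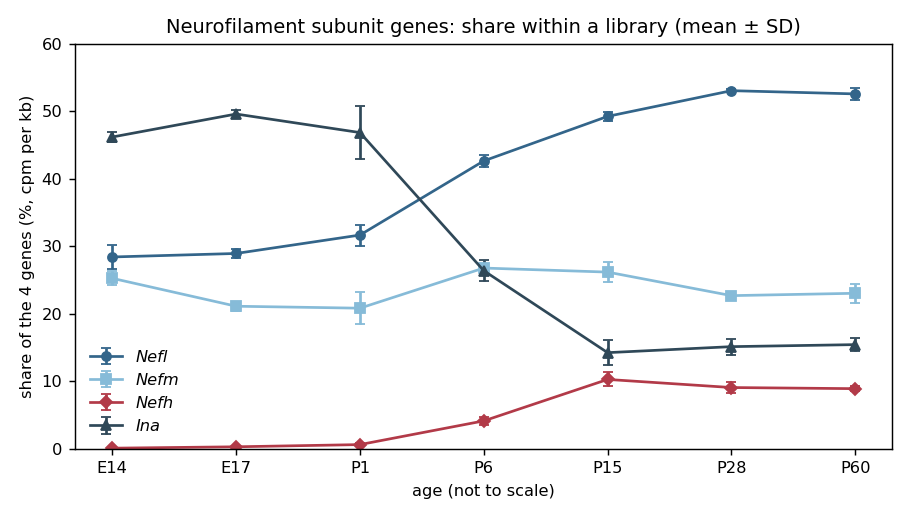
Share of each of the 4 neurofilament subunit genes in their summed level per kb of all annotated exons within a library (y axis, %, mean ± SD) at the 7 ages (x axis, not to scale). The Ina share is 46.9% at P1, 26.4% at P6 and 14.2% at P15, over the same ages in which Nefl goes from 31.7% to 49.3% and Nefh from 0.622% to 10.3%.

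The shares shifted mostly between P1 and P15, where the Ina ranges of P1, P6 and P15 did not overlap. The Ina share was 46.2% ± 0.781 at E14, 49.6% ± 0.551 at E17 and 46.9% ± 3.87 at P1 (SD, n = 3, 3 and 4), although the mean cpm of Ina was by then 205.1, against 562.9 at E14. It was 26.4% ± 1.55 at P6 (n = 3), 14.2% ± 1.86 at P15 (n = 4), 15.1% ± 1.20 at P28 (n = 4) and 15.4% ± 0.946 at P60 (n = 6). The Nefh share was 0.092% ± 0.0277 at E14, 0.622% ± 0.22 at P1, 4.14% ± 0.599 at P6 and 10.3% ± 1.03 at P15. P15 replicate 4 had the lowest Ina share of its age, 11.5% against 14.9% to 15.3%, while its Nefl share of 49.0% lay inside their range of 48.5% to 50.1%. In level per kb of all annotated exons, Ina led at E14 with 173.7 ± 2.19 cpm per kb, followed by Nefl (107.0 ± 9.65), Nefm (94.9 ± 1.46) and Sncg (90.8 ± 6.83), of which Nefm and Sncg overlapped. At P60 Nefl led with 88.4 ± 8.19 cpm per kb, followed by Nefm (38.9 ± 5.66), Ina (26.0 ± 3.30), Thy1 (25.2 ± 4.83), Nefh (14.96) and Sncg (14.3 ± 3.52). Of these Nefm overlapped with Ina, Ina with Thy1 and Nefh with Sncg. The order depends on the length used. With the length of the first-numbered transcript of each gene, Nefm (164.6 ± 2.54 cpm per kb) lay above Nefl and next to Ina at E14. At P60 Nefm (67.4 ± 9.81) then overlapped with Nefl, and Thy1 (43.4 ± 8.35) lay above Ina in every library.

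Nefl and Nefm are neighbours and moved together in time, but their proportion shifted. The ratio of Nefm to Nefl in cpm, whose change with age does not depend on gene length, was 1.53 ± 0.152 at E14, 1.25 ± 0.0649 at E17, 1.12 ± 0.0838 at P1, 1.07 ± 0.0247 at P6, 0.91 ± 0.0566 at P15, 0.731 ± 0.0107 at P28 and 0.75 ± 0.055 at P60. All 3 E14 libraries lay above all P1 libraries, and all P15 libraries lay above those of P28 and P60. The ratio of Nefh to Nefl was 0.00388 ± 0.00135 at E14, 0.0233 ± 0.00841 at P1, 0.114 ± 0.0159 at P6, 0.247 ± 0.027 at P15 and 0.20 ± 0.00776 at P60. The annotation has a second Nefm transcript, numbered 202, with an exon that covers 1108 exon bases of Nefl on the opposite strand, whereas 30187 bases separate Nefl from the first transcript. Likewise 456 exon bases of Ina overlap with Nt5c2 on the other strand. Whether the counting used the strand is not given in the sources used here, so reads in these stretches could not be assigned to one gene. With the length of the first-numbered transcript, the Nefm share was 36.9% at E14 and 34.2% at P60, that of Ina 39.0% and 13.2%, and that of Nefl 24.0% and 45.0%, so Nefm then exceeded Nefl at E14.

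Promoters were looked up for all members in RefSeq (GRCm38.p6), and those of Ina, Sncg and Prph were matched, while Nefl, Nefm, Nefh and Thy1 were not. The upstream sequences of Ina (chr19:47014431-47014680, plus strand) and Sncg (chr14:34374790-34374919, minus strand) are shown because these are the members that fell more than 2-fold, with the E-box letters CAGCTG in capitals:
Ina: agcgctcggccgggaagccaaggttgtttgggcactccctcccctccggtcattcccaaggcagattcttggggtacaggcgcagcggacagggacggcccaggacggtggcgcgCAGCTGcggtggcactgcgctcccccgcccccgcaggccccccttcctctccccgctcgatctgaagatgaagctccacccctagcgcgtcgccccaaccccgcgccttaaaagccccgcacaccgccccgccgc
Sncg: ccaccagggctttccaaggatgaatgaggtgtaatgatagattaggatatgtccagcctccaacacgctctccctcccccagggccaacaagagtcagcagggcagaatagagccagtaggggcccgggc
In the 250 bases before the start site, Ina held CAGCTG, 135 bases before the start, and Sncg held none of the 3 motifs searched on both strands, which were the TATA box letters TATAAA, the E-box letters named above and the homeodomain core letters TAATTA. No 2 of these motifs overlap in the windows. Prph held TATAAA, 31 bases before its start. Among 32851 such windows the TATA box letters were in 12.4%, the E-box letters in 13% and the homeodomain core letters in 4.84%. The GC content of the window was 70.8% for Ina, 61.6% for Sncg and 65.2% for Prph, beside a median of 52.4% over all windows. For Sncg the 130 bases shown are the part of its window outside the annotated gene. The rest of its 250 bases lies inside that gene and was also searched and counted for GC content. A match describes the letters only.

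Other ganglion cell genes were compared with the 7. In a list of 12 ganglion cell markers, 1 was called higher in mature than in embryonic retina, 8 were called lower and 3 were not called, with a median of -1.29. Over all features 14.9% were called higher and 16.1% lower. The RNA-binding protein gene Rbpms, which marks all ganglion cells, fell by 1.83 (SE 0.05, adjusted p = 1e-24), and the transcription factor genes Pou4f2 and Ebf3 fell by 3.36 and 2.65. The nicotinic receptor subunit gene Chrna6 rose by 4.38, and Slc17a6, Nrn1 and Opn4 did not pass the test, with differences of 0.10, 0.04 and 0.05. The summed level of the list ranged from 1555 to 1606 cpm at E14, 541.4 to 619.4 at P1, 536.2 to 585.9 at P15 and 365.3 to 429.1 at P60.

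Set against Rbpms within each library, the members kept different paths. The cpm of Rbpms was 143.2 ± 3.09 at E14, 160.5 ± 12.5 at E17, 95.5 ± 5.89 at P1, 43.4 ± 2.97 at P6 and 36.9 ± 1.51 at P60. The ratio of Nefl to Rbpms was 2.52 ± 0.191 at E14, 1.52 ± 0.116 at P1, 4.70 ± 0.0844 at P6 and 8.10 ± 0.667 at P60. The ratio of Ina to Rbpms was 3.93 ± 0.0368 at E14, 2.15 ± 0.14 at P1 and 2.28 ± 0.278 at P60. For Nefm it was 3.84 ± 0.139 at E14 and 6.10 ± 0.833 at P60, for Nefh 0.00962 ± 0.00278 and 1.62 ± 0.161, for Thy1 0.000241 and 2.05 ± 0.432, and for Sncg 0.54 ± 0.0385 and 0.331 ± 0.0794. Relative to this marker, Nefl, Nefm, Nefh and Thy1 were therefore higher at P60 than at E14 in every library, and Ina and Sncg were lower. Rbpms was chosen as the reference with its values known, and the ratio does not show how its own level per cell moved. Other markers of the list took other paths. Slc17a6 had a mean of 49.2 cpm at E14 and 40.3 at P60, while Nefm went from 548.9 to 224.8. Relative to Slc17a6, Nefm was thus lower at P60 than at E14 by these means. Nefl went from 361.8 to 298.7 cpm, nearly in proportion to Slc17a6. Pou4f2 went from 109.3 to 4.72 cpm, a larger fold than for Ina (562.9 to 84.2) and Sncg (77.3 to 12.2). Relative to Pou4f2, Ina and Sncg were thus higher at P60 than at E14 by these means. The paths of Nefl, Nefm, Ina and Sncg therefore depend on the marker chosen.

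Marker genes of horizontal cells, amacrine cells and other cell types were compared as well. Of 7 horizontal cell genes 3 were called higher and 2 lower, beside 14.9% and 16.1% of all features. The sum of the 7 was 953.8 to 972.1 cpm at E14 and 643.0 to 714.4 at P60. The calcium-binding protein gene Calb1 rose by 4.16, while the transcription factor genes Onecut1 and Onecut2 fell by 3.10 and 3.48, and the defining gene Lhx1 was low throughout, at 0.949 to 7.14 cpm. Of 6 amacrine cell genes 4 were called higher, and their sum went from 73.8 to 80.7 cpm at E14 to 333.5 to 406.4 at P60. All 6 rod genes were called higher, with sums of 22.9 to 29.6 cpm at E14 and 25550 to 31390 at P60. For peripheral nerve, which carries Prph, 1 of 4 Schwann cell genes was called higher and 1 lower. For T lymphocytes, which carry Thy1, Cd3d had at most 5 reads in any library and Lck was not called. The part of these cell types in the 7 genes' changes was not tested.

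The remaining tissue lists gave few calls apart from glia and pigment epithelium. Of 4 astrocyte genes 3 were called higher and 1 lower, beside 14.9% and 16.1% of all features. Aqp4 and Gfap were up by 6.47 and 2.44 and Pax2 was down by 1.66. Whether the Aqp4 transcripts came from astrocytes was not tested. Of 3 myelin genes tested 1 was called lower (Mog) and none higher, and Mag and Mobp, not tested, had at most 5 reads in any library. Of 5 pigment epithelium genes 3 were called higher, and none of the 2 lens, 3 blood and 3 smooth muscle genes tested was called by limma.

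Genes that build and extend axons moved mainly one way. Of 18 axon growth and microtubule genes 10 were called lower and 1 higher, beside 16.1% and 14.9% of all features. The median of the 18 was -1.47. The tubulin gene Tubb2b fell by 5.39 (SE 0.12, adjusted p = 5.1e-28), the microtubule-associated Dcx by 4.68 (SE 0.09, adjusted p = 1.2e-29) and the growth cone gene Gap43 by 3.88 (SE 0.10, adjusted p = 1.5e-25). Gap43 was at 178.3 ± 6.42 cpm at E14 and 7.83 ± 1.79 at P60. Neurofascin (Nfasc), an adhesion protein of the axon initial segment and node, rose by 1.58 (SE 0.05, adjusted p = 1.7e-23). The median of 14 genes of axonal transport and the spectrin-ankyrin skeleton was 0.11. Of them 3 were called higher and none lower, beside 14.9% and 16.1% of all features. The 3 were the spectrin Sptbn4 (2.86), the kinesin Kif1b (1.22) and the dynactin subunit Dctn1 (1.12).

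Other families related to the 7 genes were split. Among 9 tested intermediate filament genes outside the neurofilament group, 2 were called higher and 4 lower, beside 14.9% and 16.1% of all features. Nestin (Nes) and vimentin (Vim), filaments of progenitors and glia, fell by 4.61 and 1.96, the lamins Lmnb1 and Lmnb2 by 2.86 and 1.07, while Gfap rose by 2.44 and keratin Krt18 by 3.01. In contrast to Sncg, β-synuclein (Sncb) rose by 4.87 (SE 0.09, adjusted p = 4.6e-30), from 0.79 ± 0.189 cpm at E14 (SD, n = 3) to 99.8 ± 13.2 at P60 (n = 6).

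**Figure D4:**
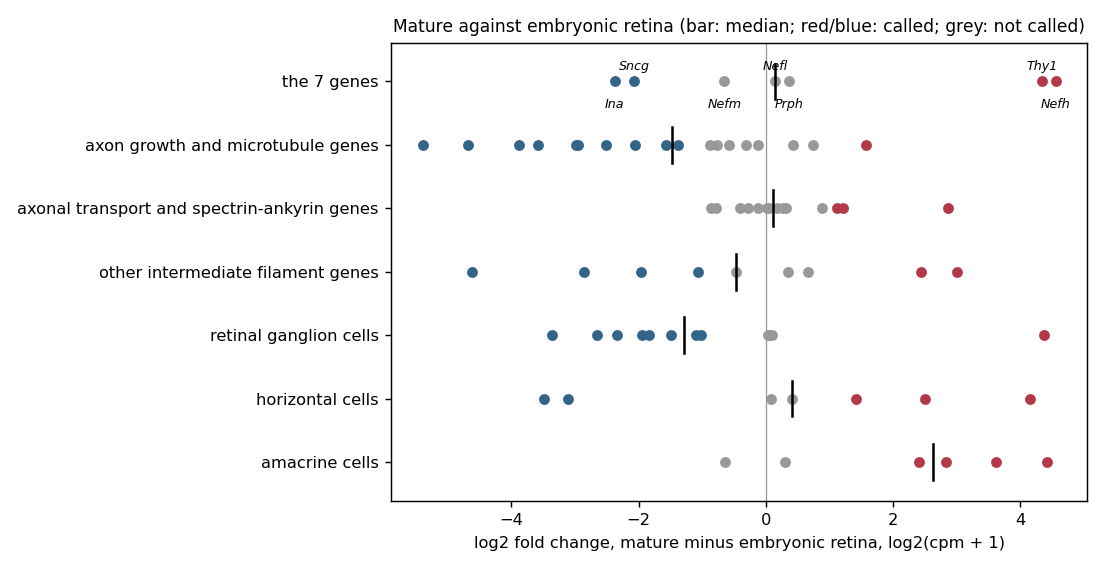
Log2 fold change of mature against embryonic retina on the log2(cpm + 1) scale (x axis) for the 7 genes and for the genes of 6 lists (y axis), each point a gene, with red called higher, blue called lower, grey not called and a bar at the median. The 7 genes spread from -2.38 (Ina) to 4.56 (Nefh), with a median of 0.145, while axon growth and ganglion cell genes have medians of -1.47 and -1.29.

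The genes most like each member over the 7 age means of log2(cpm + 1) were sought among 12336 genes of at least 10 cpm at their highest age. These correlations describe 7 points that share one series of ages, and nothing is claimed from them on function. For Nefl the closest were Nrn1 (Pearson r = 0.960), Ero1l (0.953) and Rgs6 (0.944). Nrn1, which encodes the neurite growth protein neuritin, was at 46.8 ± 1.87 cpm at E14, 19.8 ± 3.10 at P1 and 51.3 ± 2.42 at P15, and thus had its own trough at P1. For Nefm they were Btbd3 (0.944), Ccnd3 (0.941) and Lipa (0.935), and for Nefh Fam134b (0.998), Gm38396 (0.998) and 5930430L01Rik (0.998). For Ina they were Ccdc14 (0.997), Pip5k1b (0.996) and Irx2 (0.994), and for Sncg 9630023C09Rik (0.996), 9530018D06Rik (0.991) and the transcription factor gene Ebf1 (0.989). For Thy1 they were Iqsec3 (0.998), Kcna6 (0.997) and Chrna6 (0.996), and for Prph A430010J10Rik (0.932), 8030497I03Rik (0.880) and Itgav (0.871). Chrna6 was near 0 at E14 as Thy1 was, with 0 to 3 reads, and was at 8.48 ± 0.736 cpm at E17 and 62.1 ± 4.21 at P60. Among the members the highest value was for Ina with Sncg (0.974), and that for Nefl with Nefm was 0.75.

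In P15 replicate 4, Nefm, Nefh and Prph were 1.53, 1.56 and 2.48 times the mean of the other P15 libraries, and Nefl and Thy1 1.37 and 1.35 times. Ina and Sncg, at 1.05 times each, were not raised. The summed ganglion cell markers were 0.99 times and the horizontal cell markers 1.04 times the mean of the other libraries, and the axon growth and axonal transport lists 1.15 and 1.12 times. The other intermediate filament genes and the other synucleins summed to 1.19 and 1.25 times that mean. The amacrine cell, rod and astrocyte sums were 1.05, 1.06 and 0.945 times that mean. The astrocyte sum was mostly Aqp4, with a P15 mean of 125.6 cpm against 5.91 for Gfap, 4.65 for S100b and 0.415 for Pax2. Other sums were higher in this library, at 1.14 times for blood, 1.17 for myelin, 1.18 for pigment epithelium and for lens, 1.30 for Schwann cells, 1.34 for smooth muscle and 1.97 for T lymphocytes, the last from 0.825 cpm against 0.134 to 0.730 cpm. Their part in the higher levels of the 5 genes was not tested. Across all features the mean correlation of this library with the others of its age was 0.979, against 0.984 to 0.985 for those. The P60 libraries were less alike still, with mean correlations of 0.958 to 0.973 with the others of their age.

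**Figure D5:**
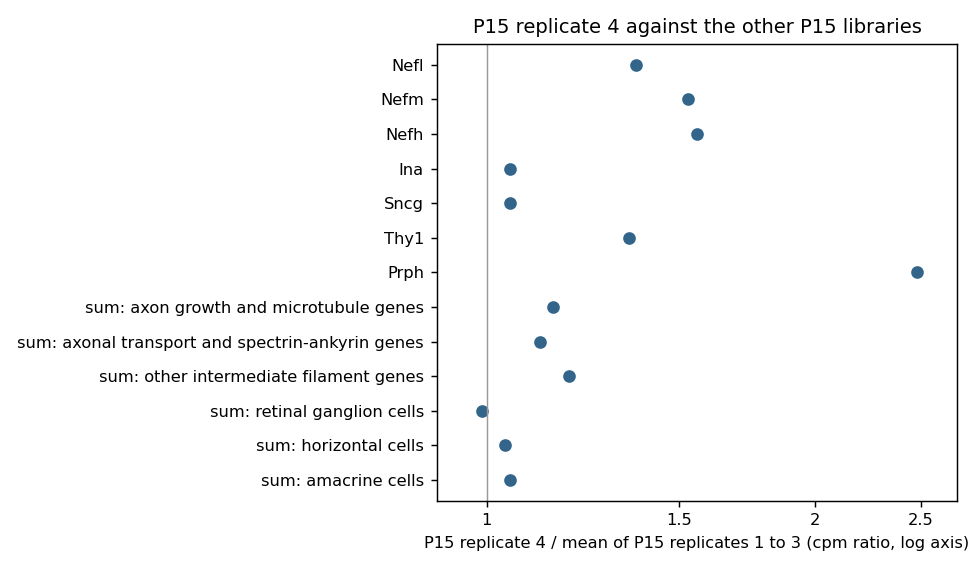
Ratio of P15 replicate 4 to the mean of P15 replicates 1 to 3 in cpm (x axis, log scale) for each of the 7 genes and for the summed level of 6 gene lists (y axis). Nefl, Nefm, Nefh, Thy1 and Prph lie between 1.35 and 2.48, while Ina, Sncg and the ganglion, horizontal and amacrine cell sums lie between 0.99 and 1.05. The axon growth, axonal transport and other intermediate filament sums lie at 1.15, 1.12 and 1.19.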

How the data were processed

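The authors made libraries from total RNA of whole retinas with the SMARTer total RNA kit, sequenced them single-end, aligned reads with STAR to mm10 (GRCm38) and deposited a table of CPM values. The annotation counted and its strand setting are not given in the sources used here. Each library's deposited CPM values were whole multiples of 1 read within 0.1 read (100% of values), except that in E14 replicate 1 the value of 1 read lies so near a round decimal that this could not be judged automatically. Intervals and limits cover counting error only.

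The 31760 features that reached 1 CPM in 3 or more libraries were tested on log2(CPM + 1) with limma 3.58.1 (trend, two-sided) in R 4.3.3, with age as the factor and all 27 libraries in one fit. Mature against embryonic retina compares the average of the P15, P28 and P60 means with that of E14 and E17. Shares were tested by exact permutation in scipy 1.17.1 (Python 3.11.15). Lengths are unions of annotated exons (GENCODE, GRCm38). The fit was tested on simulated data. Alternatives were edgeR 4.0.16 on recovered reads, with and without E14 replicate 1, a pseudocount of 0.1, a mean filter of 10 CPM and none, median-of-ratios scaling, summed entries, no minimum fold, fits of the compared ages, a replicate block, other lengths or no length, a share with Prph and each library left out. The length of the first-numbered transcript, for shares and levels per kb, was added after seeing the data.

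The members and the gene lists (axon growth, axonal transport, other intermediate filaments, Sncb and markers of 12 cell types or tissues) were chosen with earlier results of these data known. Named genes were the 7 members, the 3 genes most like each, and of each list the up to 3 called genes with the largest change plus those a sentence turns on. Markers not found in the table were Opalin, Cd3e, Cd3g, Lim2, Cryge and Crygd. Some listed genes are not reported here. Same-numbered libraries of neighbouring ages were checked for pairing.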

Additional observations from a re-analysis of the deposited data

Results flagged for a closer look

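A library was singled out when its gap to the nearest other library, as a share of the range of its age, passed Dixon's 95% limit, which chance passes in about 1 of 20 groups. P15 replicate 4 passed it as the highest P15 library for Nefl (gap of 0.951 of the range, at 488.8 cpm), Nefm (0.93, at 483.1 cpm), Thy1 (0.875, at 84.4 cpm) and Prph (0.864, at 3.30 cpm). It was the highest library for Nefh as well, where the gap of 0.658 did not pass. Over all features tested, this library stood apart in 3.59%, against 1.05% to 1.1% for each of the other P15 libraries. P1 replicate 4 stood apart as the lowest P1 library for Prph, at 0.118 cpm or 1 read (gap of 0.833).

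The second entry for Thy1, not used in the comparisons, had a mean of 11.32 cpm at P60 (SD 3.59, n = 6), above the limit that a count of 0 allows in each of the 6 libraries. It had 0 reads in all 3 E14 libraries and means of 2.23 cpm at E17, 2.95 at P1, 4.86 at P6, 8.96 at P15 and 9.71 at P28, so it followed the same order as the entry used up to P15.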

How the results depend on the processing

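With no minimum fold, the count of the 7 genes called went from 4 to 7 for mature against embryonic retina, from 1 to 5 for E14 to E17, from 2 to 5 for E17 to P1, from 1 to 6 for P1 to P6, from 3 to 5 for P6 to P15 and from 0 to 1 for each of the last 2 steps. From E14 to E17 it went from 1 to 2, by the addition of Nefh, with a pseudocount of 0.1, with edgeR and with edgeR on 2 E14 libraries. For mature against embryonic retina edgeR, with and without E14 replicate 1, called 5 genes, by the addition of Prph (1.10 and 1.20, adjusted p of 0.014 and 0.015). The share of all features was not counted with no minimum fold, with a pseudocount of 0.1 or with edgeR. The counts under these settings therefore cannot be set against such a share. With each library left out in turn the count from E17 to P1 ranged from 1 to 3. The difference in the Nefm share changed sign without division by length (-0.07419 points, exact permutation p = 0.94), and the other shares kept their direction and passed the test under every alternative run. No single gene's difference that passed the test changed direction. Calls of single genes lost or gained, beside those named in the text, were Nefl in mature against embryonic retina with the replicate block (0.11, adjusted p = 0.1), Prph in the same comparison with the block, a pseudocount of 0.1 or without E14 replicate 2 or E17 replicate 2 (adjusted p of 0.059 to 0.08), Sncg from P28 to P60 with the block (adjusted p = 0.059), and Prph and Nefh when only the compared ages were fitted (adjusted p of 0.031 from E14 to E17 and of 0.046 from P15 to P28). Same-numbered libraries of neighbouring ages did not deviate together (r of -0.0962 to 0.0932 over 20 pairs, and 3 of 27 libraries correlated best with their own number), so the numbers are not taken as pairs, and the replicate block left the counts of called genes at 4, 1, 2, 1, 3, 0 and 0. Depth limits Prph throughout and Nefh and Thy1 at E14.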
